A study of Homo sapiens with 12 samples.

Results

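A set of 10 genes, most of the IL-6 cytokine family, was followed in MCF10AT cells, a Ras-transformed derivative of the MCF10A human breast epithelial line. They are the ligand genes IL11, LIF, IL6 and CLCF1, the gp130-type receptor genes IL6ST, IL6R, IL11RA, LIFR and OSMR, and IL4R. They were chosen by name, with earlier results of these data known. Shares of members that are set beside those of all genes are therefore a description and not a test. All 10 were found by Ensembl identifier among the 62702 genes of the count table and passed the filter on low counts, which kept 17677 genes. RNA was measured in 12 libraries, 3 in each of 4 groups. In the deleted PRL group, cells expressed hPRLrL with a hPRLrI whose I-tail was deleted, and were exposed to 250 ng/ml of prolactin (PRL) for 2 h. The deleted untreated group held the same cells without PRL. The intact PRL group expressed hPRLrL with the complete hPRLrI and received the same PRL dose for 2 h, and the intact untreated group held those cells without PRL. All 4 groups had first been kept for 24 h in medium with albumin in place of serum, and had been grown before that with serum, insulin, EGF, hydrocortisone and cholera toxin. Whether each receptor pair is 1 clone or a pool, and which promoter drives it, is not stated in the labels. The study asked what the I-tail of hPRLrI contributes to the response to PRL.

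The ligands of the IL-6 family act through gp130, the protein of IL6ST. IL-6 and IL-11 first bind their own receptor chains, encoded by IL6R and IL11RA, and then recruit gp130, whereas LIF signals through gp130 joined to LIFR. Oncostatin M uses gp130 with OSMR or LIFR, and CLCF1 binds CNTFR, gp130 and LIFR. These receptors activate JAK kinases and chiefly STAT3. The IL-4 receptor chain encoded by IL4R pairs with the common gamma chain or with IL13RA1 and activates STAT6. The prolactin receptor belongs to the same class of cytokine receptors and works mainly through JAK2 and STAT5. In the mouse mammary gland, LIF activates STAT3 at the start of involution after weaning.

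By GENCODE 29 on GRCh38, the ligand genes lie on 4 chromosomes, IL11 (ENSG00000095752) at chr19:55364389-55370463, LIF (ENSG00000128342) at chr22:30240447-30246851, IL6 (ENSG00000136244) at chr7:22725884-22732002 and CLCF1 (ENSG00000175505) at chr11:67364168-67374177. Of the receptor genes, LIFR (ENSG00000113594, chr5:38474963-38608354) and OSMR (ENSG00000145623, chr5:38845858-38945596) are close to each other on opposite strands, and IL6ST (ENSG00000134352, chr5:55935095-55994993) lies on the same chromosome. IL6R (ENSG00000160712) lies at chr1:154405193-154469450, IL11RA (ENSG00000137070) at chr9:34650702-34661892 and IL4R (ENSG00000077238) at chr16:27313668-27364778. IL11 shares no exon bases with another gene.

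The upstream windows of IL11 and IL4R are shown because these genes had the largest averaged PRL fold changes among the members with a RefSeq start site in the table used. They hold the 250 bases before the start site on GRCh38.p14, at chr19:55370464-55370713 on the minus strand for IL11 and at chr16:27313724-27313973 on the plus strand for IL4R. GENCODE 29 starts IL4R further upstream, at chr16:27313668, so by that annotation the IL4R window lies inside the gene. Capitals mark a match to the AP-1 motif TGANTCA or the STAT5 motif TTCNNNGAA. Both motifs read the same on either strand, and neither overlaps the other in these windows.

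IL11: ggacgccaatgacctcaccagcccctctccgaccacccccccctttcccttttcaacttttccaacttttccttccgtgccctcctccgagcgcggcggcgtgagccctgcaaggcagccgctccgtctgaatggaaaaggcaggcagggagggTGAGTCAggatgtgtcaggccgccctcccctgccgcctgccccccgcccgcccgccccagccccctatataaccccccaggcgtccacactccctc

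IL4R: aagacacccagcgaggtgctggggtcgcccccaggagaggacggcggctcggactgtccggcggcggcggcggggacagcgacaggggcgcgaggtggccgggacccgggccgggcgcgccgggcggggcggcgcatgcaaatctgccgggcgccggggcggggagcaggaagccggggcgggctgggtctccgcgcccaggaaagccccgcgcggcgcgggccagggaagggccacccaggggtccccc

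The IL11 window held 1 AP-1 match, TGAGTCA, whose first base lies 96 bases before the start site. The IL4R window held no match to either motif. Of 35116 windows of this length in the RefSeq table, 6.57% held the AP-1 motif and 6.57% the STAT5 motif. Start sites were found for 8 of the 10 genes, in 11 windows, and LIFR was the other gene with a match, TTCCTTGAA at its first start site and TTCATCGAA at its second. A match of letters is a description and does not show binding.

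Library totals ran between 36120808 and 57324865 counts. Levels are given as CPM, each gene's reads per fixed number of reads in the TMM-scaled library, and 1 CPM corresponded to 33.5 to 57.6 reads. PRLR, the gene of the altered receptor, stood between 3099 and 3959 CPM in all libraries, and its count does not show the I-tail. All 10 genes listed as basal epithelial markers had a mean of at least 1 CPM. The same low mark was reached by 5 of the 10 fibroblast markers, so it does not establish the epithelial label by itself. The sum of the basal epithelial markers varied widely between libraries, from 3132 CPM in an intact untreated to 15653 CPM in a deleted PRL library. The endothelial markers summed to at most 3.303 CPM in any library, and the leukocyte and fibroblast markers are given further below. Libraries are numbered 1 to 3 within a group by the order of their titles, and the labels do not say that a number marks a batch. The 4 libraries numbered 1 stood apart in several of the 10 genes, as given with those genes. Intact PRL library 2 had the fewest genes detected (19073, against up to 25200) and the lowest TMM factor (0.790). In RNA from whole cultures, fewer cells of a type and less RNA per cell cannot be told apart.

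IL11 was the member called after PRL. IL-11 is a secreted cytokine with roles in haematopoiesis and in bone metastasis of breast cancer cells. In deleted cells, IL11 stood at 36.5, 27.7 and 42.7 CPM with PRL, against 12.1, 14.5 and 15.1 CPM untreated. In intact cells, it stood at 37.3, 69.7 and 27.7 CPM with PRL, against 14.1, 10.8 and 17.2 CPM untreated. Every PRL library lay above every untreated library in both receptor pairs, and the single highest value was that of intact PRL library 2.

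Averaged over both receptor pairs, IL11 was 2.86-fold higher with PRL (95% interval 2.07 to 3.95), a log2 fold change of 1.52 ± 0.22 (SE; edgeR's quasi-likelihood test with Benjamini-Hochberg adjustment, adjusted p = 0.0108). It was the 1 member of 10 called in this comparison, in which 0.119% of all tested genes were called. The difference was 2.56-fold in deleted cells (log2 1.36 ± 0.30) and 3.20-fold in intact cells (log2 1.68 ± 0.31), and neither single comparison passed the adjustment (adjusted p = 0.656 and 0.168). In each of those comparisons 0.017% of genes were called. With the library number as a block, the intact comparison was called (adjusted p = 0.0133, where 0.351% of genes were called). The deleted comparison then fell just short of a call (log2 1.37 ± 0.27, adjusted p = 0.0502, where 0.322% of genes were called). With limma-voom and quality weights the log2 fold change was 1.06 on average and still called. It was 0.95 in intact and 1.18 in deleted cells, and neither was called (adjusted p = 0.0930 and 0.116). Without intact PRL library 2 the averaged log2 fold change was 1.29 and still called, while the call ended without deleted untreated library 1 (1.47, adjusted p = 0.0528) or library 2 (1.53, adjusted p = 0.0571).

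**Figure D1:**
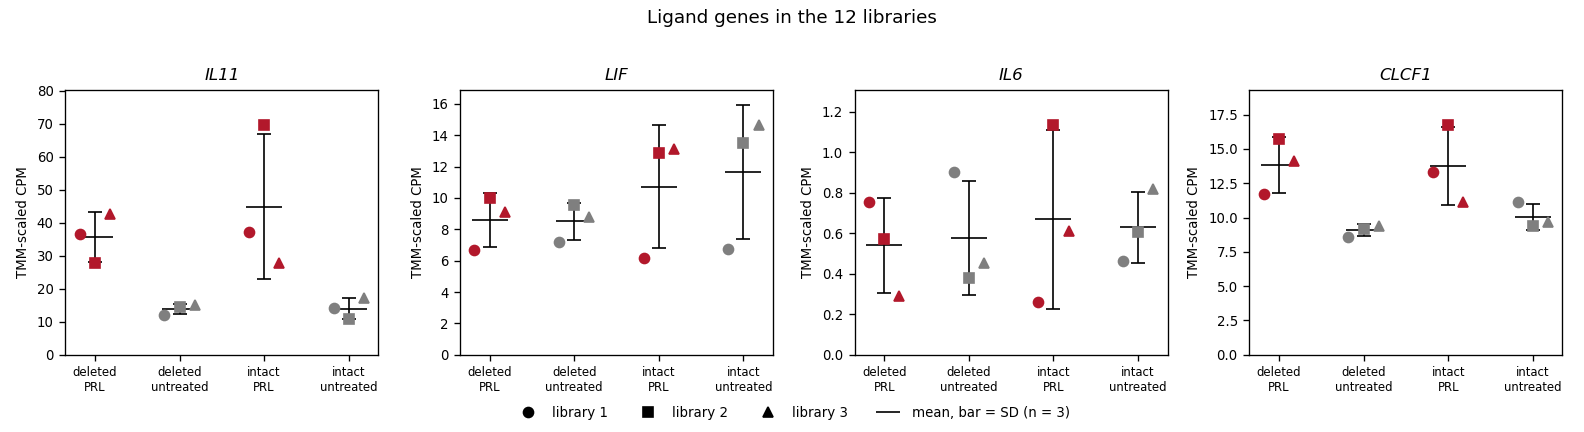
CPM of the 4 ligand genes (vertical axes, each from 0) in the 12 libraries of the 4 groups (horizontal axes), with red for PRL, grey for untreated, a symbol for each library number, and a line and bar for the mean and SD of 3 libraries. The IL11 points with PRL (27.7 to 69.7 CPM) lie above all untreated points (10.8 to 17.2 CPM), while those of LIF and IL6 overlap.

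CLCF1, the cardiotrophin-like ligand, showed a smaller difference in the same direction. In deleted cells it stood at 11.7, 15.7 and 14.1 CPM with PRL and at 8.59, 9.19 and 9.42 CPM untreated. In intact cells it stood at 13.3, 16.8 and 11.14 CPM with PRL and at 11.13, 9.35 and 9.65 CPM untreated. No PRL library fell below an untreated one, but in intact cells the lowest PRL and the highest untreated library were nearly equal. The averaged difference was 1.44-fold (log2 0.53 ± 0.14, 95% interval 0.23 to 0.84), with an unadjusted p of 0.00228 and an adjusted p of 0.412 in edgeR's quasi-likelihood test, so CLCF1 was not called. With the library number as a block, it was called (log2 0.52 ± 0.11, adjusted p = 0.0348), where 1.12% of all tested genes were called.

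IL11 and CLCF1 were the 2 members whose 6 PRL libraries all lay above the 6 untreated ones, an ordering found in 0.441% of tested genes. The same order within each receptor pair follows from this and adds nothing to it. For scale, 3.29% of genes had all 3 deleted PRL libraries above the deleted untreated ones and 2.61% had that order in intact cells.

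LIF, the leukaemia inhibitory factor, did not follow IL11. Its level was 6.67, 10.0 and 9.08 CPM in deleted PRL libraries, against 7.20, 9.53 and 8.78 CPM in deleted untreated ones. It was 6.17, 12.8 and 13.1 CPM in intact PRL libraries, against 6.77, 13.5 and 14.7 CPM in intact untreated ones. The library numbered 1 was the lowest in each group, and treated and untreated values overlapped throughout. The averaged log2 PRL difference was -0.05 ± 0.23, with a 95% interval of -0.55 to 0.44 that still allows a change of up to 1.36-fold upward (adjusted p = 0.985). An antisense gene, LIF-AS2, shares 175 of the 3969 exon bases of LIF, and its own count reached at most 10.99% of that of LIF in a library. Neither the labels nor the table state whether counting used strand, so reads in the overlap cannot be assigned.

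IL6 itself was close to the lower limit of the tested genes, with 12 to 47 reads per library. It stood at 0.756, 0.571 and 0.292 CPM in deleted PRL, 0.900, 0.380 and 0.454 CPM in deleted untreated, 0.259, 1.14 and 0.609 CPM in intact PRL and 0.464, 0.607 and 0.816 CPM in intact untreated libraries. High and low libraries occurred in every group. The averaged log2 PRL difference of -0.01 ± 0.41 had a 95% interval of -0.89 to 0.86, which reaches 1.81-fold upward.

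Among the receptors, IL6ST, which encodes the shared chain gp130, was not called after PRL. It stood at 29.3, 14.9 and 14.2 CPM in deleted PRL libraries and at 23.8, 15.1 and 16.9 CPM in deleted untreated ones. Intact PRL libraries had 21.2, 11.3 and 15.2 CPM and intact untreated ones 25.7, 11.9 and 14.7 CPM. The libraries numbered 1 were the highest of every group, at 21.2 to 29.3 CPM, with all other libraries at 11.3 to 16.9 CPM. The averaged log2 PRL difference was -0.03 ± 0.25 (adjusted p = 0.991).

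LIFR, the LIF-binding chain, showed the same separation by library number. Deleted cells had 8.47, 3.0 and 3.97 CPM with PRL and 7.32, 2.83 and 6.40 CPM untreated, and intact cells had 6.89, 4.30 and 4.22 CPM with PRL and 6.72, 2.04 and 3.99 CPM untreated. The libraries numbered 1 lay at 6.72 to 8.47 CPM and all others at 2.04 to 6.40 CPM. The averaged log2 PRL difference was 0.09 ± 0.34 (adjusted p = 0.985), and the direction turned under library-size scaling (-0.02). An antisense gene, LIFR-AS1, shares 629 of the 11864 exon bases of LIFR, and its count reached at most 18.66% of that of LIFR in a library. As for LIF, reads in the overlap cannot be assigned.

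OSMR, the oncostatin M receptor chain, was the most abundant of the receptor genes in CPM and varied least. Deleted PRL libraries had 66.0, 53.1 and 54.4 CPM, against 59.0, 57.9 and 53.9 CPM in deleted untreated ones. Intact PRL libraries had 69.8, 57.4 and 46.8 CPM, against 60.8, 51.4 and 50.5 CPM in intact untreated ones. The library numbered 1 was the highest in each group, and the treated and untreated ranges overlapped. The averaged PRL effect was 1.04-fold with a 95% interval of 0.865 to 1.26 (adjusted p = 0.981), the narrowest interval of the 10 genes, and its direction turned under library-size scaling (log2 -0.04). RICTOR, on the opposite strand, shares 229 of the 7174 exon bases of OSMR. Its count reached at most 13.03% of that of OSMR in a library, and reads in the overlap cannot be assigned here either.

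The specific receptor chains of IL-6 and IL-11 differed in abundance, and neither was called with PRL. IL6R stood at 14.7, 14.8 and 10.6 CPM in deleted PRL, 11.1, 13.8 and 8.74 CPM in deleted untreated, 14.3, 10.9 and 10.5 CPM in intact PRL and 12.2, 12.2 and 9.76 CPM in intact untreated libraries. IL11RA stood at 1.33, 0.714 and 0.950 CPM in deleted PRL, 1.41, 2.34 and 1.27 CPM in deleted untreated, 2.03, 1.17 and 0.634 CPM in intact PRL and 2.04, 1.21 and 1.08 CPM in intact untreated libraries. The ranges overlapped in both genes and both receptor pairs. The averaged log2 PRL difference was 0.16 ± 0.16 for IL6R and -0.45 ± 0.31 for IL11RA (adjusted p = 0.980 for each). Both genes kept the direction of the averaged difference under all 20 alternatives, which reuse the same libraries. Within intact cells the IL11RA difference turned to 0.16 without intact untreated library 1. The unadjusted p of the averaged IL11RA difference was under 0.05 with limma-voom (log2 -0.72, 0.0160) and in edgeR's test without intact PRL library 1 (log2 -0.71, 0.0371). It was not called in either (adjusted p = 0.220 and 0.473).

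The IL11RA value rests on 25 to 111 reads per library. Of its 4271 exon bases, 334 are shared with GALT and 410 with a protein-coding entry without a symbol, ENSG00000258728, both on the same strand. GALT had 75 to 208 reads and the other entry 40 to 129, so reads of the shared exons could have been split between them or dropped.

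**Figure D2:**
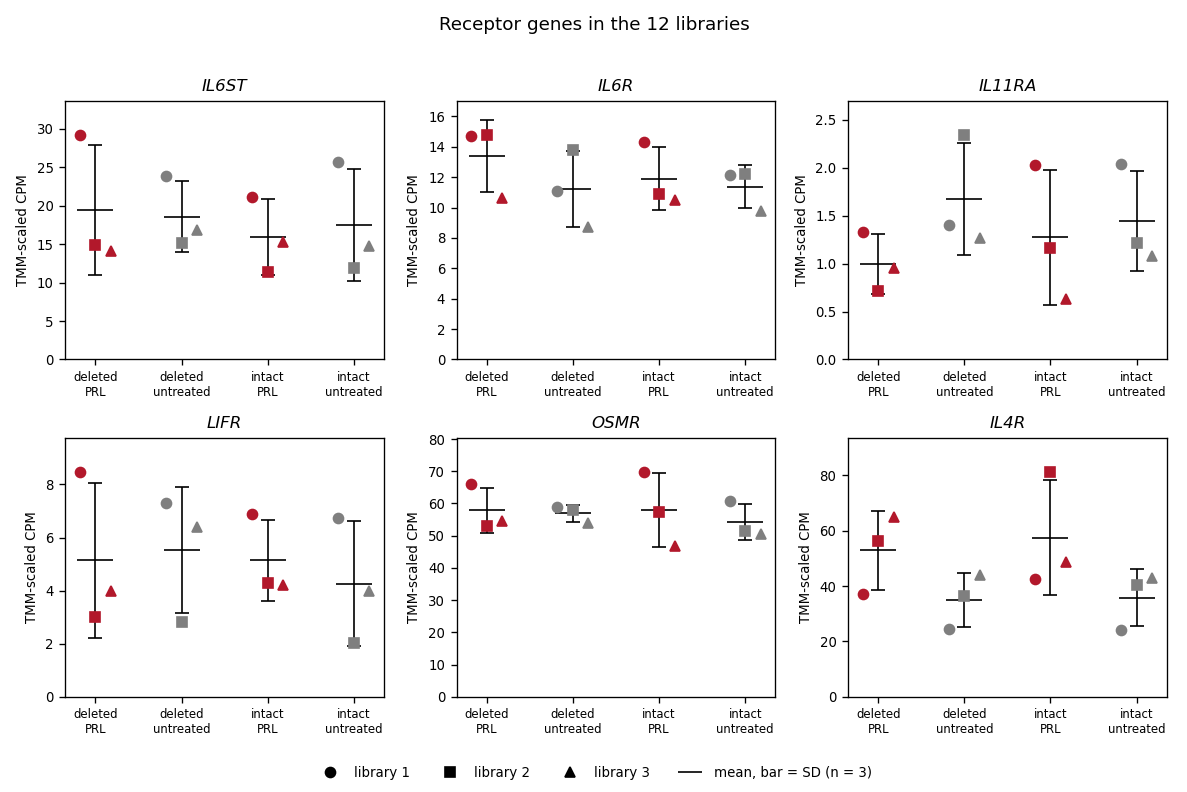
CPM of the 6 receptor genes (vertical axes, each from 0) in the 12 libraries of the 4 groups (horizontal axes), with red for PRL, grey for untreated, a symbol for each library number, and a line and bar for the mean and SD of 3 libraries. The circles of the libraries numbered 1 are the highest points of each group for IL6ST (21.2 to 29.3 CPM) and OSMR and the lowest for IL4R (24.1 to 42.5 CPM).

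IL4R, the alpha chain of the IL-4 and IL-13 receptors, had the second largest averaged PRL difference of the 10 genes. Deleted PRL libraries had 37.3, 56.4 and 65.1 CPM, against 24.6, 36.5 and 44.0 CPM in deleted untreated ones. Intact PRL libraries had 42.5, 81.3 and 48.9 CPM, against 24.1, 40.5 and 43.0 CPM in intact untreated ones. The library numbered 1 was the lowest in each group, and in both receptor pairs 1 PRL library lay below the highest untreated one. The averaged difference was 1.56-fold (95% interval 1.12 to 2.16, log2 0.64 ± 0.22), with an unadjusted p of 0.0121 and an adjusted p of 0.940, so IL4R was not called. With the library number as a block, which the labels do not call a batch, IL4R was called (log2 0.64 ± 0.11, adjusted p = 0.00719). In that fit 1.12% of all tested genes were called. Its log2 fold change was 0.59 ± 0.31 in deleted and 0.68 ± 0.31 in intact cells. Without intact PRL library 2 it was 0.48 on average and 0.35 in intact cells (unadjusted p = 0.260), and without intact untreated library 1 it was 0.46 in intact cells (unadjusted p = 0.166).

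At an unadjusted p under 0.05, 3 of the 10 genes differed for the averaged PRL effect, IL11, CLCF1 and IL4R, all higher, where 3.81% of all tested genes passed that mark. Within deleted cells 2 of the 10 passed it, IL11 and CLCF1 (1.79% of all genes), and within intact cells the same 3 as on average (2.55% of all genes), with IL4R and CLCF1 close to the mark (unadjusted p = 0.0470 and 0.0415) and above it when intact PRL library 2 was left out (0.260 and 0.191). The 4 ligand genes had a median log2 fold change of 0.26 and the 6 receptor genes one of 0.07, beside -0.02 over all tested genes. Of the 10 genes, 6 had a fold change above 0, as did 46.1% of all tested genes. The order of the averaged PRL values had IL11 first, then IL4R and CLCF1, with IL11RA last.

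**Figure D3:**
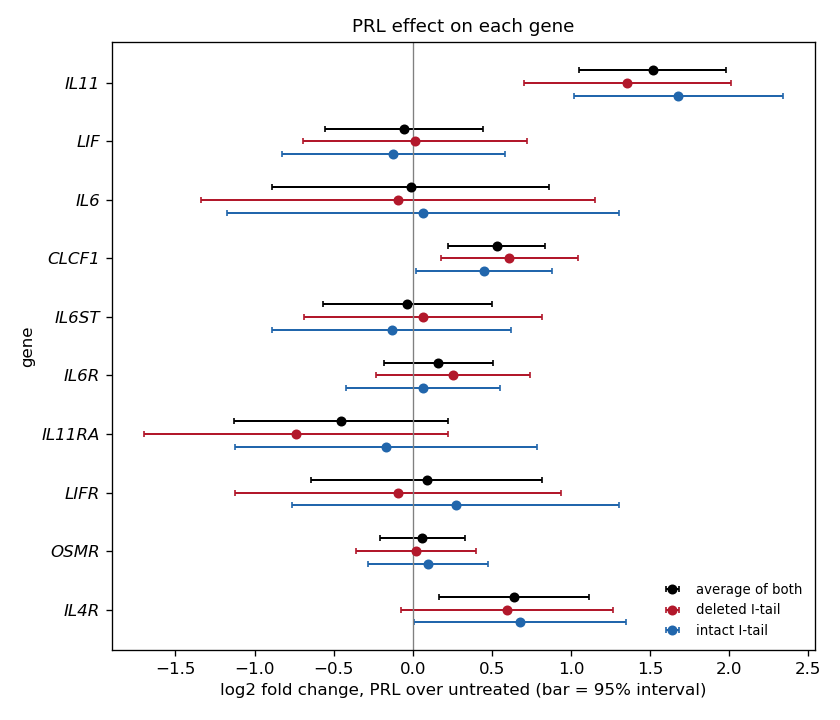
Log2 fold change of PRL over untreated (horizontal axis) for each of the 10 genes (vertical axis), with bars for the 95% interval, in black for the average of both receptor pairs, red for deleted and blue for intact cells. IL11 (1.52 on average) stands to the right of all others, and the intervals of IL11, CLCF1 and IL4R lie above 0 on average.

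Levels of different genes were compared as CPM per kb of exon, with exon lengths from GENCODE 29. In deleted PRL cells, IL11 had the highest level of the 10 genes at 13.3 ± 2.81 CPM per kb, ahead of IL4R (8.98 ± 2.41), OSMR (8.06 ± 0.988) and CLCF1 (7.01 ± 1.03), whereas in deleted untreated cells OSMR led with 7.93 ± 0.372, ahead of IL4R (5.94 ± 1.66), IL11 (5.21 ± 0.589) and CLCF1 (4.59 ± 0.218; SD, n = 3 each). In intact PRL cells, IL11 again came first with 16.8 ± 8.25 CPM per kb, and in intact untreated cells OSMR came first with 7.56 ± 0.799 and IL11 the third, with 5.25 ± 1.201. Within these leading 4 genes, neighbours in the order overlapped in their ranges, except OSMR and IL4R in deleted untreated cells.

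Below these 4 genes came a clear step. CLCF1 did not overlap with LIF, the next gene, in any group, and over all 12 libraries the means were 5.91 ± 1.38 CPM per kb for CLCF1 and 2.49 ± 0.754 for LIF. LIF, IL6ST (1.92 ± 0.618) and IL6R (1.86 ± 0.315) overlapped with each other. A second step separated them from LIFR (0.422 ± 0.173), IL11RA (0.316 ± 0.125) and IL6 (0.292 ± 0.126), which were the 3 lowest in every group and overlapped with each other. The receptor chain for IL-11 thus stood at the low end of the 10 genes and its ligand at the high end.

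**Figure D4:**
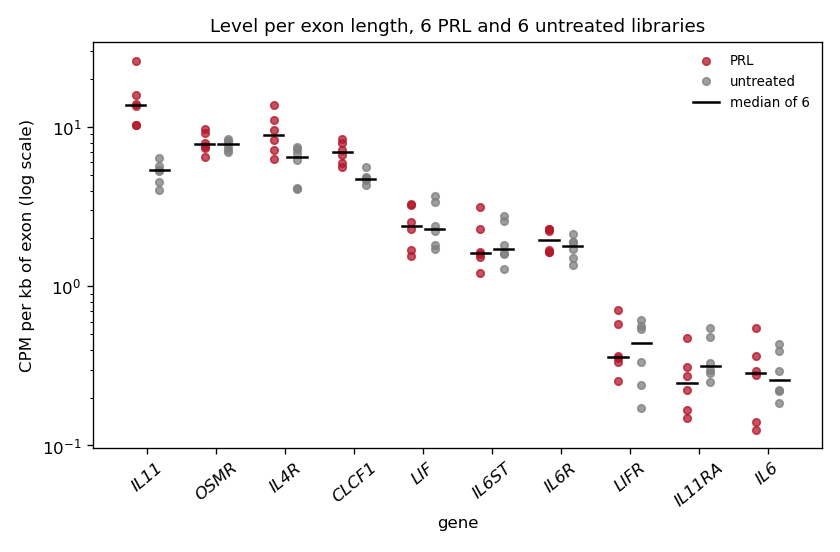
Level per kb of exon (vertical axis, log scale, CPM per kb) of the 10 genes (horizontal axis, ordered by their mean over 12 libraries), with red for the 6 PRL libraries, grey for the 6 untreated ones and a line for each median. IL11, OSMR, IL4R and CLCF1 form the upper group, and LIFR, IL11RA and IL6 the lower one with means of 0.292 to 0.422 CPM per kb.

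The deletion of the I-tail, averaged over treated and untreated cells, was called for none of the 10 genes, and 0.00566% of all tested genes were called. In this fit none of the 10 had an unadjusted p under 0.05, as 2.28% of all tested genes did. Deleted and intact libraries overlapped in every one of the 10. LIF had the smallest p, with medians of 8.93 CPM over the 6 deleted libraries and 12.99 CPM over the 6 intact ones and a log2 difference of -0.39 ± 0.23 (95% interval -0.89 to 0.11, unadjusted p = 0.119, adjusted p = 0.991). Its unadjusted p was under 0.05 with no filter (0.0414), with limma-voom (log2 -0.54, 0.00480), with the library number as a block (log2 -0.33, 0.0158), and without intact PRL library 1 (log2 -0.53, 0.0218) or intact untreated library 1 (log2 -0.52, 0.0240), and it was not called in any of these (adjusted p of 0.150 to 0.999). IL11 stood at -0.17 ± 0.21, IL6ST at 0.19 ± 0.25 and IL4R at -0.08 ± 0.22.

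Whether PRL acted differently on these genes in deleted and in intact cells was tested by the interaction, the log2 PRL effect in deleted cells minus that in intact cells. It was -0.32 ± 0.42 for IL11, with a 95% interval of -1.23 to 0.59, so that a PRL effect in deleted cells between 0.426 and 1.504 times that in intact cells lies within the interval. The sign rested on 1 library, since without intact PRL library 2 the value was 0.15. CLCF1 stood at 0.16 ± 0.28 and IL4R at -0.09 ± 0.44. No gene of the 17677 tested was called for the interaction by edgeR's quasi-likelihood test, and 127 genes (0.718%) had an unadjusted p under 0.05, while DESeq2 and limma-voom also called 0. None of the 10 genes was among the 127.

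The partners of these ligands and receptors were described by lists of named genes. Of 10 further ligand and receptor genes of the IL-6 family or related to it, 6 passed the low-count filter and none was called. IL27RA, an IL-27 receptor chain, stood at a log2 PRL difference of 0.26 ± 0.18 and EBI3, a subunit of IL-27, at -0.37 ± 0.38 (adjusted p = 0.980 for each), and the median of the 6 was -0.12. OSM and IL31 had 0 counts in every library, which allows up to 3 counts in each, and CNTFR, the receptor chain that binds CLCF1, averaged 0.0143 CPM. The gene of oncostatin M, a ligand of OSMR, was therefore not detected in cells with abundant OSMR counts.

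Of 6 genes of the IL-4 and IL-13 system besides IL4R, IL13RA1 (29.2 to 55.9 CPM) and STAT6 (304 to 430 CPM) were tested and neither was called (log2 -0.11 ± 0.20 and 0.09 ± 0.13). IL4, IL13, IL13RA2 and IL2RG, the common gamma chain, averaged at most 0.0127 CPM.

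All 10 signal transducers of gp130 were tested and none was called. TYK2, a JAK kinase, stood at 0.22 ± 0.18, GAB1, an adaptor, at -0.24 ± 0.22 and SHC1, another adaptor, at 0.15 ± 0.18, with a median of -0.08 over the list. None of 7 genes of inhibition and receptor shedding was called, with PTPN2, a phosphatase, at -0.27 ± 0.18, PIAS3, a STAT3 inhibitor, at 0.16 ± 0.16, SOCS1, a feedback inhibitor of JAK kinases, at 0.32 ± 0.43 and a median of -0.07.

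Of 30 STAT3 target genes, 20 were tested and 1 was called, JUNB, an AP-1 subunit, which was higher with PRL (log2 0.94 ± 0.16, adjusted p = 0.0386). The median of the 20 was 0.11, and 0.113% of all tested genes were called higher. Of 29 other cytokine receptor genes, 20 were tested and none was called. The smallest p belonged to IL7R, the interleukin-7 receptor chain (1.19 ± 0.35, adjusted p = 0.555), IFNGR2, an interferon-gamma receptor chain (0.24 ± 0.11), and IL10RB, a chain of the IL-10 receptor (-0.44 ± 0.26), and the median was -0.10.

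Markers of other cell types were set beside these values. The 10 leukocyte markers summed to 53.7 to 66.9 CPM in deleted PRL, 39.2 to 55.5 in deleted untreated, 57.7 to 65.4 in intact PRL and 42.0 to 48.0 in intact untreated libraries. The sum was thus higher with PRL in intact cells without overlap, as IL11 was, and in deleted cells with a small overlap, and its part in the IL11 result was not tested. It came almost wholly from CSF1R and CD14, 2 of the 10 with a mean of at least 1 CPM, while PTPRC and CD3E averaged 0.00189 CPM each. The 10 fibroblast markers, 5 of them with a mean of at least 1 CPM, summed to 484 to 620, 439 to 580, 430 to 479 and 426 to 514 CPM in the same groups, ranges that overlap between PRL and untreated cells.

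The genes whose log2 CPM followed that of IL11 most closely over the 12 libraries, among 12944 genes with a mean of at least 1 CPM, were ABTB2 (Pearson's r = 0.967), BIN1 (0.958), CDK5R1 (0.957), SKI, an inhibitor of SMAD signalling (0.952), and FOXC2, a transcription factor (0.949). Of these, ABTB2, SKI and FOXC2 were themselves called higher with PRL, as were 0.113% of all tested genes. These genes were picked for their likeness to IL11, whose PRL and untreated libraries did not overlap. Calls among them therefore follow in large part from the choice and are no separate support. The closest to LIF were CDKN1A, the p21 cell-cycle inhibitor (0.983), ACTA2, a smooth muscle actin (0.966), APOBEC3C (0.964), BICDL3P (0.960) and APLP1 (0.959), and none of these was called for PRL. All values share the same 12 libraries and their scaling, and those of LIF share the separation of the libraries numbered 1. Between the members, IL11 and CLCF1 had r = 0.874 and IL11 and LIF r = -0.01 as a description of the same libraries.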

How the data were processed

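The authors deposited raw counts of reads per Ensembl gene for 12 libraries of polyA-selected RNA. The submitters' processing notes name FastQC, STAR 2.7.9a, featureCounts, Subread and GRCh38, without roles. No source used here states the annotation release, the strand setting or filters. The 1 entry without values was left out. Depth was 36120808 to 57324865 counts per library. The labels speak of biological replicates, with no word on separate cultures for each group, so p-values measure the spread between these libraries. Replicates of a group differed beyond sampling noise (chi-square divided by its degrees of freedom 57.2 to 239.6), so none was counted as a duplicate.

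After filterByExpr and TMM scaling, counts were fitted with edgeR 4.0.16 (R 4.3.3) with 1 mean per group over all 12 libraries, robust quasi-likelihood dispersions and 8 residual degrees of freedom. The quasi-likelihood test was adjusted by Benjamini-Hochberg over all 17677 genes and called at 0.05. Log2 CPM for likeness used a prior count of 2. The alternatives tried were scaling by RLE, by upper quartile or by library size, DESeq2 1.42.0, a fit without a filter or one where 3 libraries reached 1 CPM and 10 counts, voom with quality weights in limma 3.58.1, the compared groups only, a term for the library number and leaving out each library. The fit was tested on simulated data in which genes with a mean of at least 1 CPM were changed 1.5-, 2- or 4-fold (67, 67 and 66 genes). Of these changed genes, the averaged PRL effect was called in 20.9%, 58.2% and 95.45%. The interaction was called in 0%, 4.48% and 57.6%, so a gene that was not called can still have changed. IL6 lay below the simulated levels, and the simulated libraries had no separation by library number, so these shares may differ in the data. The labels do not pair libraries, but deviations from the group means correlated at 0.134 to 0.603 in each of the 6 same-numbered pairs of PRL and untreated libraries of a receptor pair, so the blocked value stands beside PRL results whose call it changed.

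Symbols were matched for 62625 genes, and exon lengths came from GENCODE 29. The genes and lists were chosen with earlier results of these data known. Named were all 10 members, the called members of each list or otherwise the 3 with the smallest p, and the 5 genes most like IL11 and LIF, except for an item that is not reported here. CD14, CSF1R, PTPRC, CD3E, overlapping genes and genes near 0 were named after their values were seen.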

Additional observations from a re-analysis of the deposited data

How the results depend on the processing

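The averaged PRL effect called 21 genes, against 124 with no count filter, 91 with DESeq2, 118 with limma-voom and 198 with a replicate block, and 11 to 27 when 1 library was left out (12 without deleted untreated library 1 and 11 without library 2). In intact cells PRL called 3 genes, against 1 with library size alone, 46 with no filter, 22 with DESeq2, 27 with limma-voom, 1 with the compared groups only and 62 with the block, and 1 to 4 without 1 library (1 without intact untreated library 2 or 3). In deleted cells it called 3, against 1, 33, 20, 21, 11 and 57 under the same settings, and 1 to 5 without 1 library (1 without deleted PRL library 2 or 3 or deleted untreated library 1 or 2, 5 without intact PRL library 2). The I-tail deletion called 1 gene, against 33 with no filter, 10 with DESeq2, 9 with limma-voom and 11 with the block, and 1 to 2 without 1 library (2 without intact untreated library 1). The interaction called 0 genes under every alternative. IL11 kept its direction and call for the averaged PRL effect under all alternatives except the 2 leave-outs named with it (log2 1.29 to 1.66 over leave-outs, 1.47 and 1.53 where the call ended, and lowest with limma-voom at 1.06). Its interaction turned to 0.23 with limma-voom and ran from -0.58 to 0.15 over leave-outs. Differences near 0 changed sign for LIF (-0.19 to 0.085 over leave-outs), IL6 (0.0096 with RLE and 0.0097 with DESeq2, -0.32 to 0.22 over leave-outs), IL6ST (-0.24 to 0.16), LIFR (-0.016 with library size, -0.13 with limma-voom, -0.19 to 0.33) and OSMR (-0.035 with library size and -0.039 with limma-voom, -0.016 to 0.13). For these changes the cause was not tested. Between groups, same-numbered libraries correlated at 0.097 to 0.603 (16 of 18 pairs above 0.1) and those with other numbers at -0.447 to 0.301 (libraries of 1 group left out), and 12 of 12 libraries matched their own number best, a hint from the data and not from the design. With the replicate block, IL4R (0.64, adjusted p = 0.00719) and CLCF1 (0.52, adjusted p = 0.0348) were called for the averaged PRL effect beside IL11, where 1.12% of genes were called, and with no filter IL4R was called (0.65, adjusted p = 0.0221). IL11 was called in intact cells with no filter, DESeq2 and the block (adjusted p = 2.68e-08, 2.09e-04 and 0.0133) and in deleted cells with no filter, DESeq2 and the compared groups only (adjusted p = 4.67e-05, 0.0323 and 0.0474). Library size alone moved the median of all genes by -0.10 for the averaged PRL effect and by -0.12 in intact cells. IL6 was not kept by the stricter filter and has no value there, and the reads behind IL6 and IL11RA limit what could be detected in them.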
